A study of Mus musculus with 6 samples.

Results

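The cell cycle and DNA replication genes were followed in macrophages sorted from the intimal layer of the aorta of ApoE -/- mice on the C57BL/6 background, a strain that develops atherosclerotic plaques. Foamy macrophages were live CD64+CD11b+ cells high in side scatter and in BODIPY, a dye of neutral lipid, and non-foamy macrophages had the same surface markers and were low in both. The series design gives 6 mice fed a Western diet for 28 weeks, and both populations carried the same Apoe deletion and diet. There were 3 libraries of each population, and no source used here says how the mice were divided among them. The p-values therefore rest on the spread between 3 libraries a group, part of which may be technical. The genes were 33 named members out of 41388 genes in the deposited tables, each found by its symbol in the GRCm38 annotation, and were chosen by name, with no threshold on a measured value. They were split into 13 S phase members and 20 mitotic members. By choice, the G1/S cyclins were placed among the S phase members, and Ccna2, Mki67, Top2a and Stmn1 among the mitotic ones.

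A cell that divides first licenses its replication origins by loading the MCM helicase, then copies its DNA with the help of the sliding clamp and a supply of deoxynucleotides, and then assembles a spindle and separates its chromosomes under cyclin B and CDK1. The genes of S phase are commonly switched on by E2F factors, and those of mitosis by complexes that bind a promoter element called CHR, often beside CCAAT boxes bound by NF-Y. In mouse plaques, local division of macrophages is known to add to their number besides the entry of monocytes. In bulk libraries a smaller share of dividing cells and less RNA per dividing cell cannot be told apart.

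As a group the mitotic genes had lower values in foamy libraries. S phase genes had a median nearer 0, and 1 gene of each kind passed the test. All 20 mitotic members and 10 of 13 S phase members had a log2 fold change below 0 (foamy over non-foamy), as did 52.8% of all 11303 genes tested. Of these S phase members, Mcm6 (-0.02), Mcm2 (-0.10), Cdc6 (-0.11) and Mcm7 (-0.13) lay within 1 SE of 0. Without foamy replicate 1 or 2, 8 S phase members were below 0. Mitotic members had a median of -1.07, against a median of -0.13 for the S phase members and -0.04 for all genes tested. After adjustment over all genes, 1 mitotic member, Nusap1, and 1 S phase member, Rrm2, passed the test (edgeR quasi-likelihood test with Benjamini-Hochberg adjustment, threshold 0.05), and both were lower in foamy libraries. These are 6.06% of the members, where 5.41% of all genes tested were called in either direction and 2.90% were called lower. No member was called higher by edgeR or by DESeq2, where edgeR called 2.50% of all genes tested higher. DESeq2 called 7 of the 33 members lower, where it called 5.99% of its 13805 genes lower. None was higher at an unadjusted p under 0.05, where 8.63% of all genes tested were.

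The promoters of members with a RefSeq window of 250 bases before to 50 bases after a transcription start (GRCm38.p6) differed in their motifs by phase. A window was found for 26 of the 33 members, with a second one for Mcm7. The E2F motif was searched as TTCCCGC, and also as TTGGCGC, and also as TTCGCGC, and also as TTGCCGC, the CHR motif as TTTGAA or TTTAAA, and the NF-Y motif as CCAAT, each on both strands. An E2F match stood in 8 of 12 S phase windows (66.7%) and in 3 of 15 mitotic windows (20%), where 9.57% of all 32851 promoter windows held one. A CHR match stood in 4 of 12 S phase windows (33.3%) and in 13 of 15 mitotic windows (86.7%), where 27.6% of all windows held one. For CCAAT the counts were 9 of 12 (75.0%) and 13 of 15 (86.7%), against 37.4% of all windows. CHR and CCAAT stood together in 12 of 15 mitotic windows (80.0%), in 3 of 12 S phase windows (25%) and in 10.7% of all windows. A match of letters is a description of the window and not a binding site.

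**Figure D1:**
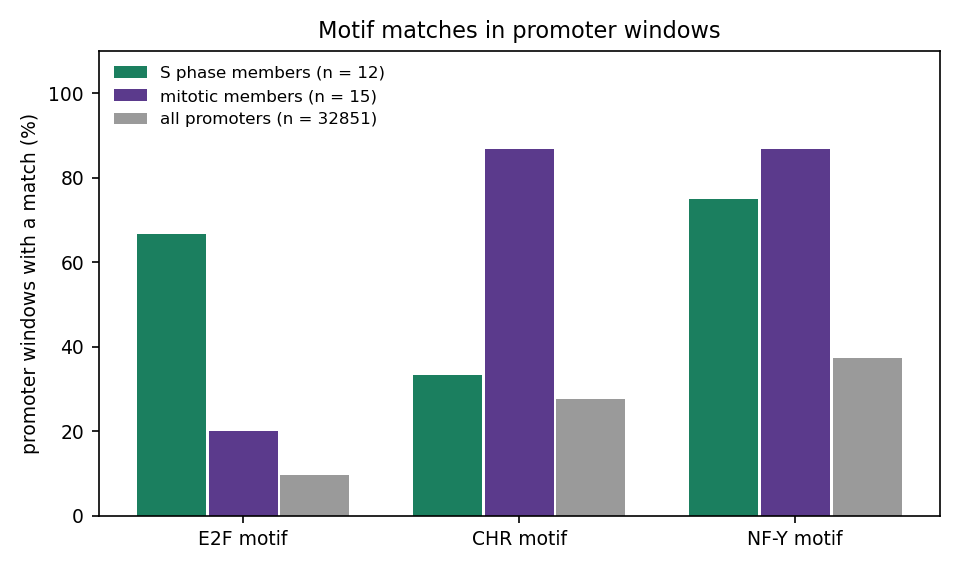
Share of RefSeq promoter windows (%, y axis) with at least 1 match of each motif, for 12 S phase windows, 15 mitotic windows and all 32851 windows. E2F matches were most frequent in S phase windows (66.7%) and CHR matches in mitotic windows (86.7%).

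The upstream stretches below end at the base before the RefSeq start and are written 5′ to 3′ on the gene's strand, with matches in capitals. Rrm2 and Nusap1 are shown as the called members, Mcm6 as the S phase window with the most E2F matches, and Top2a, Kif11 and Ccnb2 as mitotic windows with CHR and CCAAT matches.
Rrm2, chr12:24708004-24708253, plus strand: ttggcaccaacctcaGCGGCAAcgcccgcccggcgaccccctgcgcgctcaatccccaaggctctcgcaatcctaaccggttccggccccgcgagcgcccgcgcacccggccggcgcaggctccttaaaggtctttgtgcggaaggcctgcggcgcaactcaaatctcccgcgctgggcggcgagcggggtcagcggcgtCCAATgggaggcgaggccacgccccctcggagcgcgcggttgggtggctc
Mcm6, chr1:128359706-128359825, minus strand: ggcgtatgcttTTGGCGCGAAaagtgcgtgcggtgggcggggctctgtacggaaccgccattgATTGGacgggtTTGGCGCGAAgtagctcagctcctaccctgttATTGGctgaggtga
Nusap1, chr2:119618178-119618297, plus strand: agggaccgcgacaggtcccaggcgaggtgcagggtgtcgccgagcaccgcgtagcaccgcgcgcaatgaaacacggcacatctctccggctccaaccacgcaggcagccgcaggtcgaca
Top2a, chr11:99024190-99024309, minus strand: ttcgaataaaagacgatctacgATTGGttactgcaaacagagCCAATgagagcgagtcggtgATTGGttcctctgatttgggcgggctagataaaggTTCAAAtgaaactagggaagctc
Kif11, chr19:37376262-37376381, plus strand: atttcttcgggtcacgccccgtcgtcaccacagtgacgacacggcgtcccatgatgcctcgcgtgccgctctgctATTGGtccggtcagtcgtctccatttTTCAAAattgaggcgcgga
Ccnb2, chr9:70421555-70421734, minus strand: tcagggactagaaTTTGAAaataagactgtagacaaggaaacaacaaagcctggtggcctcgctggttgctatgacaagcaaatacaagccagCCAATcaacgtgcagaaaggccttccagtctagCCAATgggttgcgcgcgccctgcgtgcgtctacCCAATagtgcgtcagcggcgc
In the Mcm6 stretch the capitals TTGGCGCGAA, which stand there at both places, hold 2 overlapping E2F matches, 1 on each strand. The CHR match TTCAAA, which is TTTGAA on the other strand, begins 23 bases before the start in Top2a and 19 bases before it in Kif11. The 3 CCAAT matches of Ccnb2 begin 87, 54 and 21 bases before the start, and its upstream CHR match TTTGAA begins 167 bases before it. Each of Top2a and Ccnb2 has another CHR match in its window, outside the stretch shown. That of Top2a begins 179 bases before the start, and that of Ccnb2 at base 5, counting the start as base 1. Nusap1 held no match of any of the 3 motifs in its window, which says only that these letters are not there.

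Total counts in genes were 18592421 to 24279802 for foamy libraries and 15628627 to 24619075 for non-foamy ones. Genes with at least 1 read numbered 15595 to 17757 in the foamy and 19380 to 24701 in the non-foamy libraries, which do not overlap. Non-foamy replicate 1 had the most genes at the lowest total. Apoe, the deleted gene, averaged 4.96 ± 1.78 CPM in the foamy and 4.45 ± 1.66 CPM in the non-foamy libraries (SD, n = 3 each), and all libraries came from Apoe-deleted mice. Every member was counted in every library, with the lowest single count at 1 read and the highest at 2557, and all 33 passed the filter on low counts. Fcgr1 and Itgam, which encode the sorted antigens CD64 and CD11b, were present in all libraries, at 232 and 77.8 mean CPM in the foamy and 182 and 142 CPM in the non-foamy libraries. Itgam was called lower in foamy libraries (log2 fold change -0.87, edgeR adjusted p = 0.023), and Fcgr1 was not called (0.35, edgeR adjusted p = 0.5). Values below are TMM-normalized CPM unless RPKM is named. For TMM-normalized CPM the count is divided by the library's total times its TMM factor, and then scaled by a fixed number. These factors ran from 0.868 (foamy replicate 1) to 1.186 (non-foamy replicate 1). RPKM is per kilobase of exon and holds no such factor.

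Per length, the sliding clamp gene Pcna was the most abundant S phase member and the cyclin gene Ccnb2 the most abundant mitotic one. These RPKM hold no TMM factor, so their foamy to non-foamy ratios are not those of the TMM-normalized CPM. For Pcna, the foamy mean was the lower one in RPKM but the higher one in TMM-normalized CPM (106 against 101). Pcna averaged 40.4 RPKM in foamy and 46.3 RPKM in non-foamy libraries, followed by Rrm2 with 13.2 and 31.0 RPKM and Rrm1 with 8.56 and 14.5 RPKM. Ccnb2 averaged 17.6 RPKM in foamy and 31.0 RPKM in non-foamy libraries, followed by Birc5 with 10.5 and 21.1 RPKM and Nusap1 with 5.27 and 17.7 RPKM. At the low end, Cdc6 averaged 0.786 RPKM in foamy and 1.06 RPKM in non-foamy libraries, and Cdc20 0.696 and 0.995 RPKM.

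**Figure D2:**
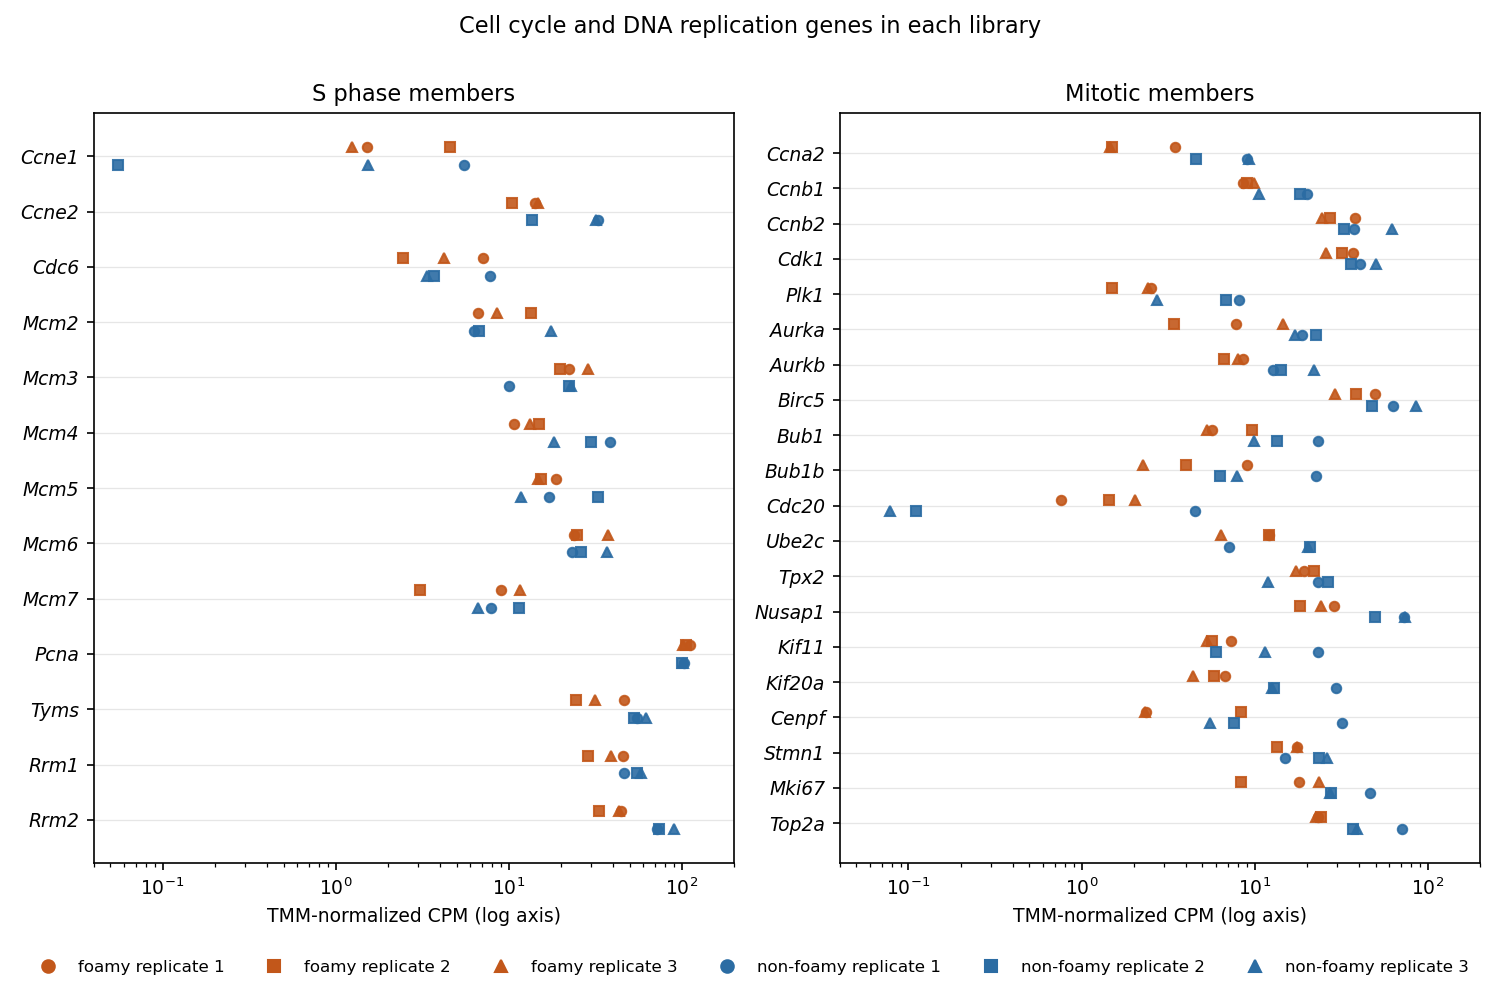
TMM-normalized CPM (log x axis) of each member in each of the 6 libraries, foamy above non-foamy in each row, with S phase members left and mitotic members right. Pcna lies between 100 and 112 CPM in all libraries, while the foamy values of Nusap1, at 18.2 to 28.6 CPM, lie below its non-foamy values of 49.5 to 74.1 CPM.

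Some member counts may hold reads of other genes. Exons on the opposite strand cover 22.8% of the exon bases of Ube2c (Tnnc2, at 0 reads in all libraries), 17.4% of Ccne2 (Ints8), 7.25% of Mcm7 (Ap4m1), 4.24% of Nusap1 (Oip5) and 2.84% of Cdc20 (Elovl1), and those of Kif20a and Ccna2 are given with these genes. The processed pseudogene Pcna-ps2 had 32, 25 and 32 reads in foamy and 27, 22 and 38 reads in non-foamy replicates 1 to 3, and Ccnb2-ps had at most 23 reads in a library.

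Among the S phase members, the genes of deoxynucleotide supply were all below the non-foamy level in every foamy library. Rrm2 encodes the small subunit of ribonucleotide reductase, the enzyme that makes deoxynucleotides, and its level is known to follow the cell cycle. Rrm2 (ENSMUSG00000020649) lies on GRCm38 chromosome 12 from 24708241 to 24714146. It stood at 44.8, 33.1 and 43.4 CPM in foamy replicates 1 to 3 and at 71.6, 74.3 and 89.9 CPM in the non-foamy replicates 1 to 3. The groups did not overlap, with foamy replicate 2 lowest and non-foamy replicate 3 highest. Rrm2 was at 0.514 of its non-foamy mean in foamy libraries (log2 fold change -0.96 with SE 0.23, edgeR adjusted p = 0.033). Leaving out any single foamy library ended this call (-1.03, -0.82 and -1.01 without replicates 1 to 3), and so did leaving out non-foamy replicate 2 (-0.99) or 3 (-0.84), with the direction kept each time.

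Rrm1 encodes the large subunit of the same enzyme, whose protein is stable through the cycle. It had 45.7, 28.8 and 39.2 CPM in the foamy and 46.1, 55.3 and 58.3 CPM in the non-foamy replicates 1 to 3, without passing the test (log2 fold change -0.49 with SE 0.25, edgeR adjusted p = 0.34). Foamy replicate 1 stood just under the lowest non-foamy library. Tyms, thymidylate synthase, had 46.1, 24.6 and 31.4 CPM in the foamy and 55.4, 53.3 and 62.2 CPM in the non-foamy replicates 1 to 3 (log2 fold change -0.74 with SE 0.27, edgeR adjusted p = 0.16). Its foamy values varied 1.87-fold among themselves and its non-foamy values 1.17-fold.

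Of the genes that load or form the replicative helicase, Mcm4 had the lowest log2 fold change and the other 5 MCM genes lay nearer to 0. Mcm4 had 10.8, 14.9 and 13.2 CPM in the foamy and 38.7, 29.7 and 18.2 CPM in the non-foamy replicates 1 to 3. Its groups did not overlap, but non-foamy values spread 2.13-fold and it stayed short of the threshold (log2 fold change -1.15 with SE 0.35, edgeR adjusted p = 0.084). Without non-foamy replicate 3, its lowest non-foamy value, Mcm4 was called (-1.39). The other subunits of the same ring overlapped between the groups: log2 fold changes were -0.10 for Mcm2 (SE 0.51), 0.35 for Mcm3 (SE 0.36), -0.33 for Mcm5 (SE 0.40), -0.02 for Mcm6 (SE 0.30) and -0.13 for Mcm7 (SE 0.54). Mcm3 averaged 23.5 ± 4.56 CPM in the foamy and 18.4 ± 7.20 CPM in the non-foamy libraries (SD, n = 3 each), and Mcm6 28.6 ± 7.57 and 28.9 ± 7.25 CPM. Cdc6, which loads the ring on origins, averaged 4.59 ± 2.36 CPM in the foamy and 4.96 ± 2.47 CPM in the non-foamy libraries. The difference between Mcm4 and the other subunits was not tested.

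Pcna, the clamp that holds DNA polymerase on its template and also serves in DNA repair, had the smallest SE of the 33 members. It had 112, 106 and 101 CPM in the foamy and 103, 100 and 101 CPM in the non-foamy replicates 1 to 3 (log2 fold change 0.07, or -0.20 when scaled by total counts alone, with SE 0.18, edgeR adjusted p = 0.89). The foamy and non-foamy values overlapped and each group varied by at most 1.11-fold. The G1/S cyclin gene Ccne2 had 14.2, 10.5 and 14.7 CPM in the foamy and 33, 13.6 and 32.0 CPM in the non-foamy replicates 1 to 3 (log2 fold change -1.0 with SE 0.38, edgeR adjusted p = 0.18). Non-foamy replicate 2 lay among the foamy values. Its relative Ccne1 held 1.24 to 4.57 CPM in the foamy and 0.055 to 5.52 CPM in the non-foamy libraries, where non-foamy replicate 2 had a single read.

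Mitotic members had negative log2 fold changes in every role, with 1 of the 20 past the adjusted threshold. At least 2-fold lower fits were seen in 12 of 20 mitotic members (60.0%) and 1 of 13 S phase members (7.69%), against 13.1% of all genes tested. An unadjusted p under 0.05 in the lower direction was reached by 12 mitotic (60.0%) and 4 S phase members (30.8%), against 10.1% of all genes. All foamy values lay below all non-foamy values in 10 mitotic (50.0%) and 4 S phase members (30.8%), against 13.3% of all genes. No member had all foamy values above all non-foamy values, against 12.4% of all genes. The difference between the phases was not tested.

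**Figure D3:**
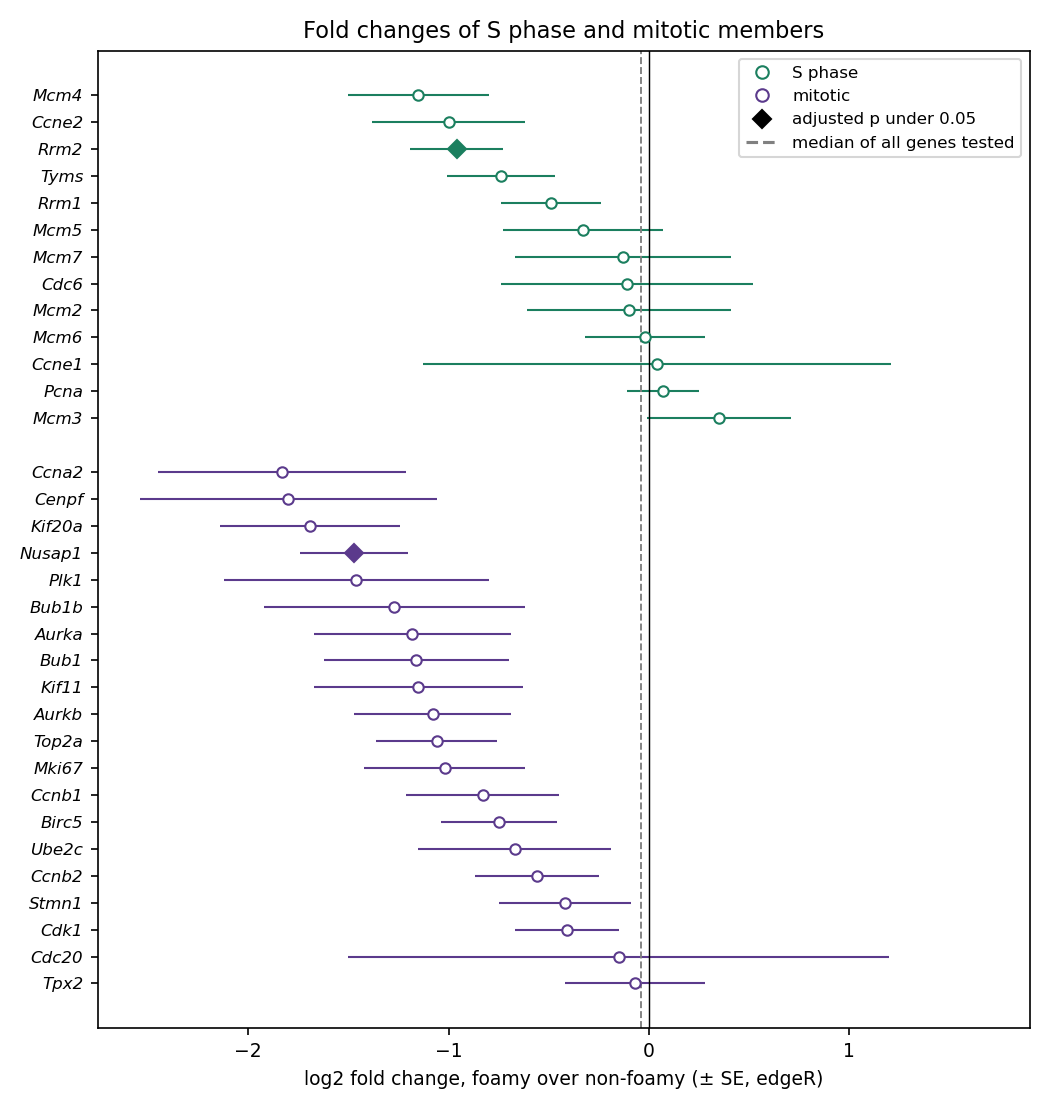
Log2 fold change, foamy over non-foamy, of each member (points, with bars of 1 SE from edgeR), S phase members above mitotic members, filled diamonds for adjusted p under 0.05 and a dashed line at the median of all genes tested (-0.04). Rrm2 (-0.96) and Nusap1 (-1.47) are the filled points, and the 20 mitotic members all lie left of 0.

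Nusap1 encodes a microtubule-binding protein that bundles spindle fibres around chromosomes, and was the member with the smallest p. Nusap1 (ENSMUSG00000027306) lies on GRCm38 chromosome 2 from 119618298 to 119651244. It stood at 28.6, 18.2 and 24.2 CPM in the foamy and at 72.9, 49.5 and 74.1 CPM in the non-foamy replicates 1 to 3. Every foamy value was below every non-foamy value, and in each population replicate 2 was lowest. Nusap1 was at 0.362 of its non-foamy mean in foamy libraries (log2 fold change -1.47 with SE 0.27, edgeR adjusted p = 0.0096). The call was lost without foamy replicate 2 (-1.30) or 3 (-1.48).

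Kif20a and Top2a came next to the threshold from outside. Kif20a, a kinesin of the central spindle, had 6.74, 5.85 and 4.42 CPM in the foamy and 29.5, 12.9 and 12.6 CPM in the non-foamy replicates 1 to 3 (log2 fold change -1.69 with SE 0.45, edgeR adjusted p = 0.055). Cdc23, on the opposite strand and itself counted at 146 to 488 reads, shares 33.2% of the exon bases of Kif20a, and no strand setting is given for the counting, so reads of this pair may not be told apart. Top2a, the topoisomerase that untangles replicated chromosomes, had 23.4, 24.1 and 22.7 CPM in the foamy and 70.7, 36.9 and 39.2 CPM in the non-foamy replicates 1 to 3. Its foamy values were within 1.07-fold of each other, all below the non-foamy values (log2 fold change -1.06 with SE 0.30, edgeR adjusted p = 0.065). Mki67, whose protein Ki-67 coats mitotic chromosomes and is the usual stain for dividing cells, had 18.0, 8.36 and 23.7 CPM in the foamy and 46.6, 27.5 and 27.4 CPM in the non-foamy replicates 1 to 3. Its groups did not overlap, short of the test's threshold (log2 fold change -1.02 with SE 0.40, edgeR adjusted p = 0.19).

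The cyclins and their kinase had log2 fold changes of different sizes, none past the test. Ccna2, cyclin A2, had 3.46, 1.5 and 1.46 CPM in the foamy and 9.10, 4.57 and 9.29 CPM in the non-foamy replicates 1 to 3 (log2 fold change -1.83 with SE 0.62, edgeR adjusted p = 0.13). Its groups did not overlap, at counts of 27 to 236 reads a library, and 14.6% of its exon bases are shared with Exosc9 on the opposite strand. Ccnb1, cyclin B1, averaged 9.16 ± 0.667 CPM in the foamy and 16.4 ± 5.03 CPM in the non-foamy libraries. Its highest foamy value, 9.87 CPM, stood just under its lowest non-foamy value, 10.6 CPM. Ccnb2, cyclin B2, had 38.2, 27.1 and 24.5 CPM in the foamy and 37.3, 33 and 61.9 CPM in the non-foamy replicates 1 to 3, which overlap (log2 fold change -0.56 with SE 0.31, edgeR adjusted p = 0.38). Cdk1, the kinase they activate, averaged 31.7 ± 5.68 CPM in the foamy and 42.2 ± 7.28 CPM in the non-foamy libraries and also overlapped (log2 fold change -0.41 with SE 0.26, edgeR adjusted p = 0.45).

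The mitotic kinases and the chromosomal passenger genes had log2 fold changes from -1.46 to -0.75. Aurka, the kinase of spindle poles, had 7.83, 3.40 and 14.6 CPM in the foamy and 18.8, 22.6 and 17.2 CPM in the non-foamy replicates 1 to 3, a 4.30-fold spread among foamy libraries (log2 fold change -1.18 with SE 0.49). Aurkb, the kinase of the passenger complex, had 8.54, 6.69 and 7.98 CPM in the foamy and 12.7, 14.3 and 22.1 CPM in the non-foamy replicates 1 to 3 (log2 fold change -1.08 with SE 0.39). Both kept apart between the groups without passing the test (edgeR adjusted p = 0.22 and 0.15). Birc5, survivin of the same complex, had 49.5, 38.8 and 29.3 CPM in the foamy and 63.3, 48.0 and 86.0 CPM in the non-foamy replicates 1 to 3 (log2 fold change -0.75 with SE 0.29, edgeR adjusted p = 0.18). Foamy replicate 1 exceeded non-foamy replicate 2, so the groups overlapped. Plk1, a kinase active through mitosis, averaged 2.15 ± 0.560 CPM in the foamy and 5.92 ± 2.85 CPM in the non-foamy libraries (log2 fold change -1.46 with SE 0.66).

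None of the spindle checkpoint genes and the remaining spindle genes passed the test. Bub1, a checkpoint kinase, averaged 6.91 ± 2.42 CPM in the foamy and 15.5 ± 6.93 CPM in the non-foamy libraries, and the related Bub1b averaged 5.10 ± 3.50 and 12.3 ± 9.05 CPM. Cenpf, a kinetochore protein, had 2.37, 8.30 and 2.32 CPM in the foamy and 32.0, 7.65 and 5.55 CPM in the non-foamy replicates 1 to 3, with non-foamy replicate 1 alone above all the others. Kif11, the motor that pushes spindle poles apart, averaged 6.09 ± 1.07 CPM in the foamy and 13.5 ± 8.75 CPM in the non-foamy libraries and overlapped by 1 foamy value. Tpx2, which starts microtubule growth at chromosomes, was near its non-foamy level, at 19.6 ± 2.38 CPM in the foamy and 20.5 ± 7.57 CPM in the non-foamy libraries (log2 fold change -0.07 with SE 0.35). Stmn1, a microtubule destabilizer, averaged 16.3 ± 2.36 CPM in the foamy and 21.7 ± 5.93 CPM in the non-foamy libraries.

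The genes that end mitosis had few reads or overlapping values. Ube2c, the ubiquitin-conjugating enzyme of the APC/C, the ubiquitin ligase that ends mitosis, averaged 10.2 ± 3.30 CPM in the foamy and 16.2 ± 7.85 CPM in the non-foamy libraries. Cdc20, the activator of the APC/C, had 16, 26 and 38 reads in foamy and 84, 2 and 2 reads in non-foamy replicates 1 to 3. Non-foamy replicate 1 was the highest library for Cdc20 and the other non-foamy libraries were the lowest (log2 fold change -0.15 with SE 1.35), and without non-foamy replicate 1 the log2 fold change was 3.83, not called. Non-foamy replicate 1 was also the highest library for Foxm1, a transcription factor of mitotic genes, with 18, 44 and 23 reads in foamy and 94, 7 and 3 reads in non-foamy replicates 1 to 3.

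Summed over members, the S phase genes came to 363, 301 and 349 CPM in the foamy and 426, 429.6 and 462 CPM in the non-foamy replicates 1 to 3. The mitotic genes came to 307, 254 and 249.5 CPM in the foamy and 581, 415 and 507 CPM in the non-foamy replicates 1 to 3. Neither sum overlapped between the groups, and the foamy mean was 0.769 of the non-foamy mean for S phase and 0.539 for mitotic genes. The mitotic sum divided by the S phase sum, which does not depend on the scaling of the libraries, was 0.844, 0.842 and 0.714 in foamy and 1.36, 0.966 and 1.10 in non-foamy replicates 1 to 3. Abundant members weigh most in these sums, which are given as descriptions.

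**Figure D4:**
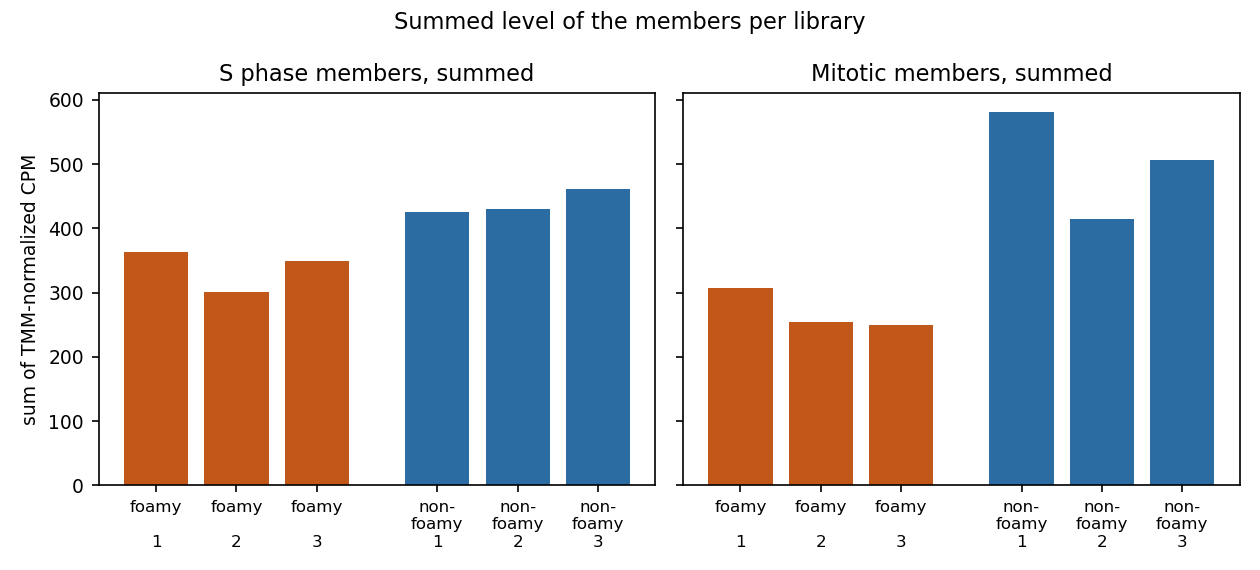
Sum of TMM-normalized CPM (y axis, from 0) over the 13 S phase members and over the 20 mitotic members in each library, foamy left of non-foamy. The mitotic sums are 249.5 to 307 CPM in the foamy and 415 to 581 CPM in the non-foamy libraries.

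Leaving out single libraries changed the size of the mitotic fold changes, with 18 to 20 of the 20 members below 0 each time. Non-foamy replicate 1 was the highest library for 10 of 20 mitotic members and foamy replicate 3 the lowest for 11. How often each library was highest or lowest over all genes tested was not counted, so these counts are not a trait of the members. Without non-foamy replicate 1, which also had the most genes with reads, the mitotic median was -0.71, and the log2 fold changes were -0.49 for Bub1b, -0.52 for Kif11 and -0.61 for Cenpf, against -1.27, -1.15 and -1.80 with it. Among other single libraries, leaving out foamy replicate 1 gave -1.96 for Bub1b, foamy replicate 2 gave -2.66 for Cenpf, and foamy replicate 3 gave -1.79 for Aurka. None of these fits called the gene. The log2 ratio of the summed mitotic CPM was -0.78 without non-foamy replicate 1, against -0.89 with it, and 18 of the 20 mitotic members stayed below 0. The part of the number of genes with reads in the mitotic result was not tested. For S phase members, foamy replicate 2 was lowest for 6 of 13, while the highest value lay in non-foamy replicate 1 or 3 for 4 members each and in foamy replicate 3 for 3. The S phase median lay between -0.44 and -0.26 when any 1 library was left out, against -0.13 with all of them. Scaling by total counts alone moved the median of all genes tested to -0.31, the S phase median to -0.44 and the mitotic median to -1.35.

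Genes of the cycle outside the member list, with anti-proliferative genes and macrophage growth signals, were described in 12 lists of 223 genes. Of these genes, 215 were tested and are named other cell cycle genes below. Of these, 14 (6.51%) were called lower and 2 (0.930%) higher in foamy libraries, where 2.90% of all genes were called lower and 2.50% higher. Of all genes tested, 52.8% had a log2 fold change below 0. Spindle and cytokinesis genes had the lowest median log2 fold change (-1.22), with 23 of 23 tested below 0 and 2 called, Anln and Ckap2l. Kinetochore and checkpoint genes had a median of -0.82, with 23 of 23 below 0 and Dsn1 called. Condensin, cohesin and separase genes had a median of -0.65, with 17 of 18 below 0 and Smc4 called. Origin and replication fork genes had a median of -0.25 with 24 of 36 below 0, and chromatin assembly genes a median of -0.73 with 7 of 8 below 0. Neither of these lists had a gene called by edgeR. At an unadjusted p under 0.05, the fork list had 3 lower and 1 higher and the assembly list 3 lower and 1 higher. Of all genes tested, 10.1% were lower and 8.63% higher at that threshold. DESeq2 called none of the fork list and 2 lower and 1 higher in the assembly list. The APC/C and SCF ligase list stood at a median of 0.05, with none called by edgeR, 2 lower at an unadjusted p under 0.05 and 1 called lower by DESeq2.

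Among the called spindle and chromosome genes, Ckap2l, a spindle-associated protein, averaged 11.7 ± 4.52 CPM in the foamy and 43.7 ± 8.96 CPM in the non-foamy libraries (log2 fold change -1.90 with SE 0.34, edgeR adjusted p = 0.0085). Anln, anillin of the cleavage furrow, averaged 7.38 ± 1.89 CPM in the foamy and 24.7 ± 3.20 CPM in the non-foamy libraries (log2 fold change -1.74 with SE 0.35). Smc4, a condensin subunit, averaged 23.3 ± 4.81 CPM in the foamy and 58.6 ± 12.4 CPM in the non-foamy libraries (log2 fold change -1.33 with SE 0.27). Dsn1, a kinetochore subunit, had a log2 fold change of -2.08 (SE 0.54). Of 11 genes tested in the nucleotide list, 1 was called, where 5.41% of all genes tested were called in either direction. This was Dck, deoxycytidine kinase of the salvage pathway, at 39.9 ± 7.14 CPM in the foamy and 82.4 ± 18.1 CPM in the non-foamy libraries (log2 fold change -1.05). Tk1, thymidine kinase, averaged 18.0 ± 7.20 and 19.9 ± 7.53 CPM (log2 fold change -0.15 with SE 0.40). The calls of Ckap2l, Anln, Smc4 and Dck were lost without foamy replicate 3 (-1.88, -1.54, -1.28 and -1.04), those of Anln, Smc4 and Dck without foamy replicate 1 (-1.78, -1.20 and -1.17), those of Smc4 and Dck without non-foamy replicate 3 (-1.23 and -0.87), and that of Dck without foamy replicate 2 (-0.91) or non-foamy replicate 2 (-1.04). The Dsn1 call ended when any foamy library (-2.40, -2.15 and -1.73 without replicates 1 to 3) or non-foamy replicate 1 (-2.10) or 2 (-1.78) was left out.

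Upstream of replication, the RNA of cyclins D1 and D2 was lower in foamy libraries. These were the 2 genes called of 25 tested in the list of G1 cyclins, their kinases, RB and E2F (median log2 fold change -0.37). Of all genes tested, 2.90% were called lower. Ccnd2, cyclin D2, had 2.42, 1.06 and 0.593 CPM in the foamy and 15.7, 16.9 and 12.2 CPM in the non-foamy replicates 1 to 3 (log2 fold change -3.45 with SE 0.59, edgeR adjusted p = 0.0067). Ccnd1, cyclin D1, had 5.98, 3.40 and 6.53 CPM in the foamy and 22.6, 24.2 and 16.3 CPM in the non-foamy replicates 1 to 3 (log2 fold change -1.99 with SE 0.40, edgeR adjusted p = 0.015). Leaving out any foamy library ended its call (-2.07, -1.74 and -2.15 without replicates 1 to 3), as did leaving out non-foamy replicate 2 (-1.87), whereas Ccnd2 was called under every alternative run. Ccnd3 averaged 1.97 ± 1.0 CPM in the foamy and 6.79 ± 2.78 CPM in the non-foamy libraries without passing the test (log2 fold change -1.79 with SE 0.66). Cdk4, a kinase partner of these cyclins, averaged 117 ± 19.8 CPM in the foamy and 114 ± 14.8 CPM in the non-foamy libraries (log2 fold change 0.04, or -0.23 when scaled by total counts alone, with SE 0.20). Cdk6, the other partner, had 197, 186 and 208 CPM in the foamy and 813, 323 and 291 CPM in the non-foamy replicates 1 to 3 (log2 fold change -1.27 with SE 0.34, edgeR adjusted p = 0.053). It was called when non-foamy replicate 1 (-0.64) or 3 (-1.51) was left out. Rb1, which restrains E2F, had a log2 fold change of -0.56 (SE 0.32), and E2f1 averaged 13.8 ± 1.66 CPM in the foamy and 7.75 ± 4.67 CPM in the non-foamy libraries (log2 fold change 0.83 with SE 0.47, edgeR adjusted p = 0.39).

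**Figure D5:**
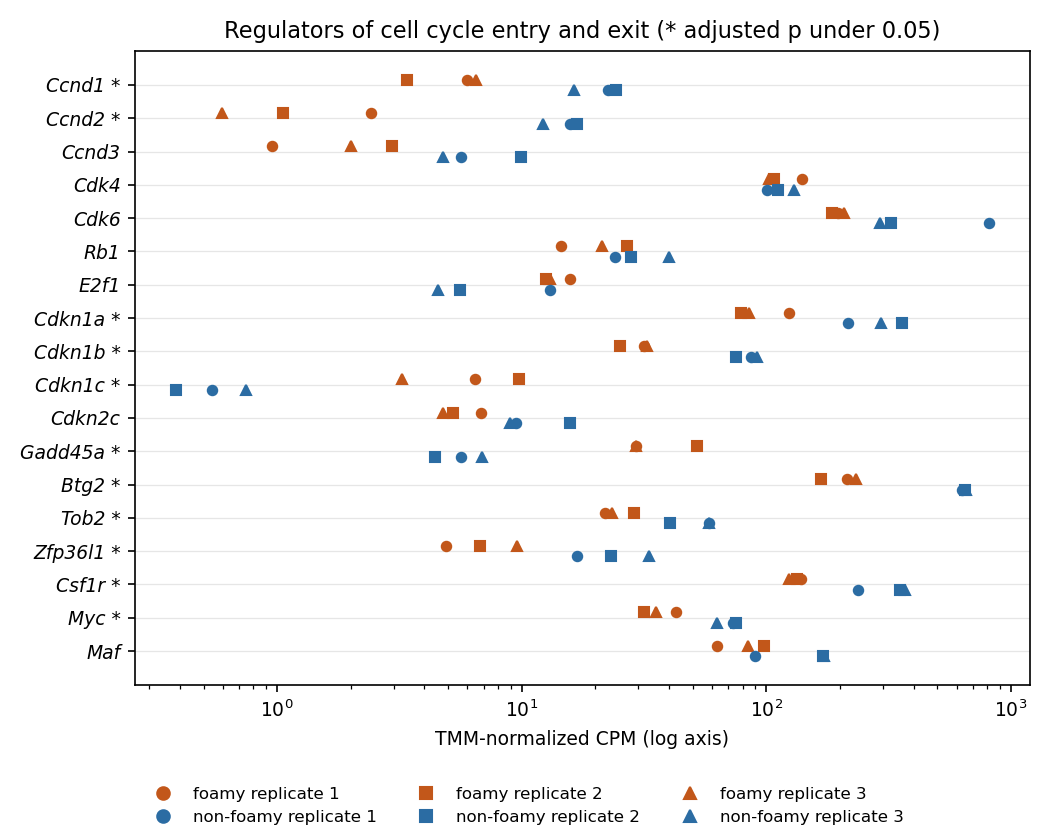
TMM-normalized CPM (log x axis) in each library of genes that act on entry to and exit from the cycle, foamy above non-foamy in each row, with an asterisk for adjusted p under 0.05. Ccnd2 lies at 0.593 to 2.42 CPM in the foamy and 12.2 to 16.9 CPM in the non-foamy libraries, and Gadd45a at 29.3 to 52.3 CPM in the foamy and 4.40 to 6.89 CPM in the non-foamy libraries.

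Inhibitors of the cycle moved in both directions, with 1 of the 5 tested CDK inhibitors called higher and 2 lower. Of all genes tested, 2.50% were called higher and 2.90% lower. Of 20 genes of the CDC25, WEE1 and damage checkpoint list, 1 (Gadd45a) was called, and it was higher. Cdkn1a, the p53-inducible inhibitor p21, had 124, 78.7 and 84.8 CPM in the foamy and 216, 358 and 294 CPM in the non-foamy replicates 1 to 3 (log2 fold change -1.59 with SE 0.25, edgeR adjusted p = 0.0036). Cdkn1b, the inhibitor p27 of resting cells, had 31.6, 25.2 and 32.4 CPM in the foamy and 86.2, 74.9 and 91.2 CPM in the non-foamy replicates 1 to 3 (log2 fold change -1.50 with SE 0.22, edgeR adjusted p = 0.0030). Cdkn1c, the inhibitor p57, was higher in foamy libraries, with 6.45, 9.75 and 3.24 CPM against 0.542, 0.385 and 0.748 CPM in the non-foamy replicates 1 to 3 (log2 fold change 3.51 with SE 0.75, edgeR adjusted p = 0.021). Gadd45a, a stress-inducible gene that binds PCNA, was also higher, with 29.3, 52.3 and 29.4 CPM in the foamy and 5.63, 4.40 and 6.89 CPM in the non-foamy replicates 1 to 3 (log2 fold change 2.71 with SE 0.36, edgeR adjusted p = 0.0015). Cdkn2c, the inhibitor p18 of CDK4 and CDK6, averaged 5.61 ± 1.09 CPM in the foamy and 11.4 ± 3.74 CPM in the non-foamy libraries (log2 fold change -1.02 with SE 0.45, edgeR adjusted p = 0.25). The Cdkn1c call ended when foamy replicate 1 (3.52) or 2 (3.11) or non-foamy replicate 2 (3.31) was left out.

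Anti-proliferative genes were below their non-foamy level as a list, and growth genes were mixed. All 14 tested genes of the anti-proliferative list had a log2 fold change below 0 and 3 were called. Of all genes tested, 52.8% were below 0 and 2.90% were called lower. Of these, Btg2 averaged 204 ± 34.2 CPM in the foamy and 646 ± 11.6 CPM in the non-foamy libraries (log2 fold change -1.66 with SE 0.18, edgeR adjusted p = 0.00037), while Tob2 and Zfp36l1 had log2 fold changes of -1.08 and -1.79. Of 9 genes tested in the growth list, 5 had a log2 fold change below 0 and 2 were called, both lower. At an unadjusted p under 0.05 the growth list had 5 lower and 2 higher, where 10.1% of all genes tested were lower and 8.63% higher. DESeq2 called 4 of the growth list lower and 1 higher. Csf1r, the receptor of the macrophage growth factor CSF1, had 138, 134 and 124 CPM in the foamy and 238, 353 and 368 CPM in the non-foamy replicates 1 to 3 (log2 fold change -1.28 with SE 0.20, edgeR adjusted p = 0.0043). Myc, a growth-promoting transcription factor, averaged 36.6 ± 5.59 CPM in the foamy and 70.4 ± 6.76 CPM in the non-foamy libraries (log2 fold change -0.94 with SE 0.23, edgeR adjusted p = 0.034). Maf, a factor known to restrain division of mature macrophages, did not pass the test, at 81.5 ± 17.6 CPM in the foamy and 145 ± 47.2 CPM in the non-foamy libraries. Leaving out foamy replicate 1, 2 or 3 ended the calls of Tob2 (-0.99, -1.19 and -1.03), Zfp36l1 (-1.57, -1.75 and -2.06) and Myc (-1.06, -0.84 and -0.92). Leaving out non-foamy replicates did so for Tob2 (replicate 1, -1.0, and 3, -0.98), Zfp36l1 (replicate 2, -1.82, and 3, -1.49) and Myc (replicate 1, -0.92, and 2, -0.89), and Maf was called without non-foamy replicate 1 (-1.08).

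The summed monocyte markers, B and plasma cell list and genes of tissue handling were also lower in foamy libraries. The T and NK sum was higher there, as was the macrophage sum, whose markers were called in both directions. The other marker sums overlapped between the groups. The 11 monocyte markers, all detected, summed to 165 to 245 CPM in the foamy and 831 to 1218 CPM in the non-foamy libraries, with 7 of 10 tested called lower. For comparison with this and the other lists, 2.90% of all genes tested were called lower and 2.50% higher. Immediate early and heat shock genes, which digestion of tissue can induce, summed to 2462 to 3042 CPM in the foamy and 5542 to 7849 CPM in the non-foamy libraries, with 14 of 19 called lower. The B and plasma cell list summed to 94.2 to 124 CPM in the foamy and 579 to 694 CPM in the non-foamy libraries, mostly Ighm. Cd79b had 257 to 342 reads in the foamy and 269 to 301 reads in the non-foamy libraries. Ms4a1 had 140 reads in non-foamy replicate 1 and at most 8 in any other library, and Cd79a had at most 4 reads in a library. The T and NK list summed to 17.1 to 25 CPM in the foamy and 1.14 to 6.06 CPM in the non-foamy libraries. Cd4 (11.4 to 21.4 CPM in foamy, 0.472 to 3.47 CPM in non-foamy libraries) carried most of it, and Cd4 and Klrb1c, the 2 genes tested, were both called higher. Trbc2 was at 0 in all 6 libraries, Cd3e and Cd8a had at most 2 reads, and Cd3d and Trac at most 28 reads. Cd247 had 89 reads in non-foamy replicate 3 and at most 3 in any other library. Lck had 52 reads in foamy replicate 3 and at most 4 in any other. In foamy replicate 1, Cd3g had 12 reads and Nkg7 18. Of the dendritic cell sum of 321 to 365 CPM in the foamy and 228 to 509 CPM in the non-foamy libraries, most was Itgax, at 336 ± 19.0 and 211 ± 60.6 CPM. The other 3 dendritic markers tested had lower foamy means, at 5.00 and 153 CPM for Cd209a, 4.14 and 13 CPM for H2-DMb2 and 0.825 and 6.31 CPM for Dpp4. None of the 4 was called by edgeR, 1 was lower and 1 higher at an unadjusted p under 0.05, and DESeq2 called 3 lower and 1 higher. Neutrophil markers summed to 14.8 to 27.4 CPM in the foamy and 10.7 to 39.9 CPM in the non-foamy libraries, with Camp at 0, and Csf3r made up 20 ± 6.07 and 7.64 ± 1.48 CPM of it. S100a9, the 1 of 3 tested neutrophil markers called, was lower, with 0, 0 and 1 reads in foamy and 58, 308 and 33 reads in non-foamy replicates 1 to 3. Smooth muscle markers summed to 3.8 to 31.8 CPM in the foamy and 4.40 to 27.9 CPM in the non-foamy libraries, endothelial markers to 9.97 to 14.2 and 13.1 to 16.4 CPM, and fibroblast markers to 2.84 to 171 and 11.8 to 307 CPM. The erythroid sum was at most 0.167 CPM in any library, with 3 of 6 markers at 0 throughout. The macrophage markers summed to 55545 to 63585 CPM in the foamy and 23954 to 37654 CPM in the non-foamy libraries, with 3 of 10 called higher and 3 lower. Lyz2, at 34350 and 14340 mean CPM, was the largest part. Lyz2, Cd68 and Mertk were called higher, and Csf1r (log2 fold change -1.28), Adgre1 (-0.83) and Itgam (-0.87) lower. The part of these other transcripts in the lower mitotic level was not tested.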

How the data were processed

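RNA of 3 foamy and 3 non-foamy libraries was read as cDNA made with the SMARTer Ultra Low kit, per the labels' protocols. Tools listed in the submitters' processing notes are featureCounts 1.4.5, Subread and STAR 2.0.4b, with GRCm38 as build. For strand setting and multiply mapped reads, the settings used were not given in the sources used here. The deposited counts are whole reads per gene. The deposited CPM equals the count divided by the library's total and scaled by a fixed factor, and the deposited RPKM equals that CPM per kilobase, both checked to 1e-06.

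Symbols came from GENCODE M21 (40340 of 41388 IDs). Genes were tested with edgeR 4.0.16 in R 4.3.3 (filterByExpr, TMM, robust quasi-likelihood F-test, Benjamini-Hochberg over 11303 genes, threshold 0.05). Each SE was taken as |log2 fold change| divided by √F, and each mean and SD from the TMM-normalized CPM of 3 libraries. The procedure was run on simulated counts with known fold changes, as a check of the code. Both groups were given the same spread there, so it does not cover groups of unequal spread. No replicate pair was alike within sampling noise (the smallest chi-square over its degrees of freedom was 50.74).

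Members and lists were chosen with earlier results of these data known. All members are accounted for. Those with full values are the called ones and, per phase, the 3 highest in RPKM and the 3 smallest p among those not called; others are given where a role is described. Of the other lists, called genes and a fixed set of regulators are named. One regulator of that set is not reported here. Promoter windows are RefSeq's. Reads carry no molecular identifiers. Alternatives were RLE factors, total counts only, DESeq2 1.42.0, no filter, at least 10 counts in 3 libraries, a replicate block and each library left out.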

Additional observations from a re-analysis of the deposited data

How the results depend on the processing

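Of the 18 genes called among the members and the 12 other lists, 6 (Ccnd2, Cdkn1a, Cdkn1b, Gadd45a, Btg2 and Csf1r) were called under every one of 12 alternatives. None of these 6 is a member, and the calls of Rrm2 and Nusap1 did not hold throughout. Csf1r is from the growth list and is also counted among the macrophage markers. RLE factors and a filter of at least 10 counts in 3 libraries moved no count by over 1.5 times. Groups of 3 libraries with a common biological coefficient of variation of 0.505 limit what can be called. Except where stated, the cause of a change was not tested.

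Scaling by total counts alone left 165 genes higher and 614 lower of all tested, against 283 and 328 as reported. It called 3 S phase and 3 mitotic members and 29 other cell cycle genes lower, with medians of -0.44 (S phase) and -1.35 (mitotic) and log2 ratios of the summed CPM of -0.65 and -1.18, since it moves all genes down. It reversed Ccne1 (-0.26), Pcna (-0.20) and Cdk4 (-0.23), none of them called. DESeq2 called 592 genes higher and 827 lower, 2 S phase and 5 mitotic members lower, and 5 other cell cycle genes higher and 34 lower. Without a filter 457 genes were higher, 0 S phase members were lower, and Cdc6 (0.04), Mcm6 (0.07), Cdc20 (0.08) and Tpx2 (0.05) were reversed.

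Libraries with the same replicate number did not deviate together (correlations -0.0706, -0.0227 and -0.0313), so the numbers were not taken as pairs. With a replicate block, 159 genes were higher, 0 S phase members were lower, 1 other cell cycle gene was higher and 9 were lower. Cdc20 (2.26) and Foxm1 (1.41) were reversed there.

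Leaving out each library in turn gave 113 to 285 genes higher and 158 to 294 lower, 0 to 1 S phase and 0 to 1 mitotic members lower, and 1 to 2 other cell cycle genes higher and 6 to 17 lower. Fits with 5 libraries have fewer residual degrees of freedom. The medians were -0.44 to -0.26 for S phase and -1.16 to -0.71 for mitotic members. Uncalled genes that changed sign were Ccne1 (-0.76 to 1.59), Cdc6 (-0.56 to 0.37), Mcm2 (-0.43 to 0.56), Mcm5 (-0.60 to 0.19), Mcm6 (-0.25 to 0.21), Mcm7 (-0.50 to 0.27), Cdc20 (-0.70 to 3.83), Tpx2 (-0.33 to 0.16), Cdk4 (-0.10 to 0.15), Foxm1 (-0.84 to 2.58) and Tk1 (-0.43 to 0.22).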
